A study of Canis lupus familiaris with 10 samples.

Results

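The miR-15, miR-16 and miR-195 family was described from 5 miRNAs of 320 listed in all, cfa-miR-15a, cfa-miR-15b, cfa-miR-16, cfa-miR-195 and cfa-miR-497, written without the canine prefix cfa below where no identifier is needed. They were chosen by name, and each was measured in all 10 libraries. Small RNA was sequenced from frozen lymph node tissue of 6 dogs with diffuse large B-cell lymphoma (DLBCL1 to DLBCL6) and from 4 healthy ones (Healthy2 to Healthy5). Each dog gave one library, so that p-values measure the spread between dogs. The dogs with DLBCL were pet patients of both sexes and several breeds, and their nodes were removed by biopsy under anesthesia. The healthy dogs were young purpose-bred female hound crosses from a commercial vendor, which were euthanatized in surgical teaching courses. Their breed, source and way of sampling, and in part their sex, differ along with the diagnosis and cannot be told apart from it. The study gives no age for the dogs with DLBCL, so that a part of age cannot be told apart either. The tumor cells were typed as B cells by immunohistochemistry, but whole node tissue was sequenced, so that fewer cells of a type and less of a miRNA per cell cannot be told apart.

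MicroRNAs guide the Argonaute complex to messenger RNAs that match their seed, a short stretch near the 5′ end, and so lower the output of those messengers. The 5 members belong to one seed family. It is known for restraining the entry into the cell cycle through cyclins and cyclin-dependent kinases, and for repressing the apoptosis inhibitor BCL2. In human chronic lymphocytic leukemia, the locus that carries miR-15a and one copy of miR-16 is often deleted, and the pair is regarded there as a tumor suppressor of B cells.

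RefSeq's genes for UU_Cfam_GSD_1.0, a canine assembly, place the members on 3 loci. The 5 members correspond to 6 genes, 2 at each locus. MIR15A lies next to MIR16-1, MIR15B next to MIR16-2 and MIR195 next to MIR497, with 0 other genes starting between the partners of each pair. The pair of MIR15B and MIR16-2 lies within SMC4, which codes for a subunit of condensin, and the pair of MIR15A and MIR16-1 within a gene without a name of its own. miR-16 is thus read from both pairs, and its count cannot be assigned to either gene. The mature sequences of the family are related, and the counting could split reads between members.

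Between 10686441 and 34709421 reads per library were counted on miRNAs, and each healthy library held more than each DLBCL library. The least counted member, miR-15a, had between 183 and 2311 reads per library, so that counting error in the library with the fewest was 7.39% of its value. Every member was read in every library and passed the filter on low counts. Levels are given as CPM, counts scaled to a common library size after adjustment by TMM, which balances the bulk of miRNAs between libraries. The libraries also fall into a group with a higher and one with a lower Q30, the share of bases of high quality in the study's read statistics. DLBCL1, DLBCL2, DLBCL3 and DLBCL5 form the higher Q30 group, whereas DLBCL4, DLBCL6 and the 4 healthy libraries form the lower one. Of the markers of mature lymphocytes, 5 of 5 were read in every library, and their summed CPM ranged from 9138 to 22448 in DLBCL and from 14280.1 to 30138 in healthy nodes. The sum hides that 3 of them had a lower and 2 a higher mean in DLBCL. For example, miR-150 averaged 1009 CPM in DLBCL and 7916 in healthy nodes, whereas miR-155 averaged 7564 and 5591.

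None of the members passed the test for a difference between canine DLBCL and healthy nodes. In edgeR 1 of 5, miR-195, had an unadjusted p under 0.05, as did 26.7% of all miRNAs tested. Differentially expressed miRNAs, or DEMs, were those with over 2-fold change whose p in edgeR's quasi-likelihood test was below 0.05 after Benjamini-Hochberg adjustment. They made up 5.67% of the 247 miRNAs tested, and those lower in DLBCL 2.02%. The members gave 0 DEMs of 5 in DESeq2 too, where 13.8% of the 320 miRNAs listed were DEMs, without edgeR's filter on low counts. Within the lower Q30 group they gave 0 of 5, where 17.8% of the 259 miRNAs tested were DEMs. The log2 fold change (DLBCL over healthy) was negative for miR-15a, miR-16, miR-195 and miR-497 and positive for miR-15b. It was negative for 44.5% of all miRNAs tested. The groups overlapped in CPM for each of the 5 members, while they did not overlap for 13.0% of the miRNAs tested. The median log2 fold change of the 5 members was -0.27, beside 0.13 for all miRNAs tested.

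**Figure D1:**
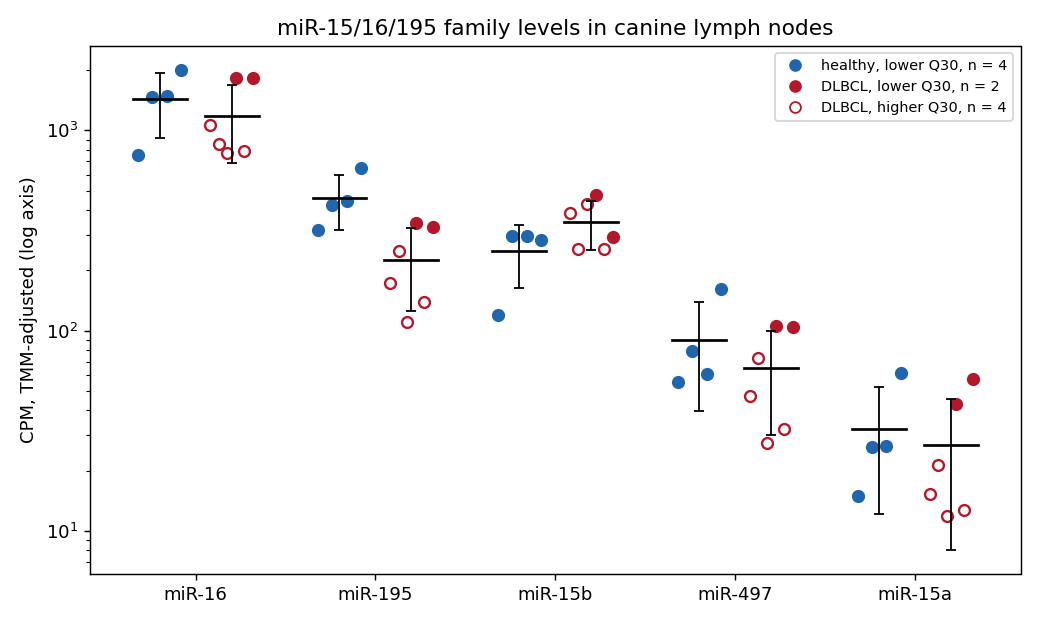
Normalized expression of the 5 members as CPM on a log axis, with one point per library. Blue points are the 4 healthy libraries, filled red points the 2 DLBCL libraries of the lower Q30 group and open red points the 4 of the higher Q30 group. Black lines show the mean and SD of all libraries of a condition. The groups overlap for each member, and the filled red points lie above the open ones for all but miR-15b.

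cfa-miR-16 was the most abundant member and ranked 48 of the 320 miRNAs by mean CPM. It measured 755 CPM in Healthy2, 1473 in Healthy3, 1487 in Healthy4 and 2003 in Healthy5. Its CPM in DLBCL ranged from 767 in DLBCL3 to 1821 in DLBCL6, with a median of 959. All 6 DLBCL libraries lay within the range of the healthy ones. It averaged 1186 ± 502 CPM over the DLBCL libraries (SD, n = 6) and 1429.6 ± 513 CPM over the healthy libraries (SD, n = 4). The log2 fold change was -0.27 (95% interval -1.15 to 0.61), with an edgeR adjusted p of 0.707. Taken within the lower Q30 group, it was 0.34. miR-16 is also abundant in red blood cells. The 3 of 3 listed red blood cell markers were read in every library, and their summed CPM was 5171 to 35567 in DLBCL and 808 to 1070.4 in healthy nodes. In DLBCL4 and DLBCL6, the libraries with the most miR-16 of the DLBCL group, this sum was 5171 and 9429, the lowest values of the group. The part of red blood cells in the levels of miR-16 was not tested.

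cfa-miR-195, which shares its locus with miR-497, gave the largest difference in the family over all 10 libraries with TMM. Its CPM was 317 in Healthy2, 421 in Healthy3, 444 in Healthy4 and 648 in Healthy5. In DLBCL it ranged from 110.1 in DLBCL3 to 344 in DLBCL4, with a median of 212. DLBCL1, DLBCL2, DLBCL3 and DLBCL5 lay below every healthy library, and DLBCL4 and DLBCL6 within the healthy range. It averaged 225 ± 99.4 CPM over the DLBCL libraries (SD, n = 6) and 458 ± 138 CPM over the healthy libraries (SD, n = 4). The log2 fold change was -1.03 with a standard error of 0.42 (95% interval -1.94 to -0.12), corresponding to a level 2.04-fold lower in DLBCL. In edgeR the unadjusted p was 0.0302 and the adjusted p 0.138, and 26.7% of all miRNAs tested had an unadjusted p under 0.05. Over the edgeR, DESeq2 and limma alternatives the adjusted p ranged from 0.0379 to 0.867. The lowest came from limma-voom with sample quality weights, in which the log2 fold change of -0.98 stayed within the fold threshold. Within the lower Q30 group, the log2 fold change was -0.45, and edgeR gave an adjusted p of 0.490. There miR-15a and miR-15b differed more, at 0.63 and 0.62. With scaling to total miRNA reads, miR-195 was at -0.19 and miR-15b at 1.15.

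The partner of miR-195, cfa-miR-497, was less abundant, at 55.6 CPM in Healthy2, 78.9 in Healthy3, 60.8 in Healthy4 and 162 in Healthy5. Its DLBCL values ranged from 27.5 CPM in DLBCL3 to 106 CPM in DLBCL4, with a median of 60.3. A total of 3 DLBCL libraries lay below the healthy range and 3 within it. It averaged 65.0 ± 34.9 CPM over the DLBCL libraries (SD, n = 6) and 89.3 ± 49.5 CPM over the healthy libraries (SD, n = 4). Its log2 fold change was -0.46 (95% interval -1.58 to 0.66), with an edgeR adjusted p of 0.595. Taken within the lower Q30 group, it was 0.23.

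cfa-miR-15b, encoded within SMC4, was the single member with a positive log2 fold change. It measured 119.8 CPM in Healthy2, 297 in Healthy3, 295 in Healthy4 and 283 in Healthy5, so that Healthy2 stood apart from the other healthy libraries. In DLBCL it ranged from 255 CPM in DLBCL2 and DLBCL5 to 478 CPM in DLBCL4, with a median of 338. DLBCL1, DLBCL3 and DLBCL4 exceeded every healthy library, and the other 3 lay among them. It averaged 349 ± 95.2 CPM over the DLBCL libraries (SD, n = 6) and 249 ± 86.3 CPM over the healthy libraries (SD, n = 4). The log2 fold change was 0.49 (95% interval -0.37 to 1.34), with an edgeR adjusted p of 0.424. It was 0.62 within the lower Q30 group.

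cfa-miR-15a, whose gene lies beside MIR16-1, was the least abundant member. Its CPM was 14.96 in Healthy2, 26.1 in Healthy3, 26.4 in Healthy4 and 61.1 in Healthy5. In DLBCL it ranged from 11.8 in DLBCL3 to 57.3 in DLBCL6, with a median of 18.3, and 4 of the 6 libraries lay within the healthy range. It averaged 26.9 ± 18.9 CPM over the DLBCL libraries (SD, n = 6) and 32.2 ± 20.1 CPM over the healthy libraries (SD, n = 4). The log2 fold change was -0.26 (95% interval -1.54 to 1.02, adjusted p = 0.825 from edgeR). Its sign turned within the lower Q30 group, where it was 0.63, and without Healthy5, where it was 0.14.

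**Figure D2:**
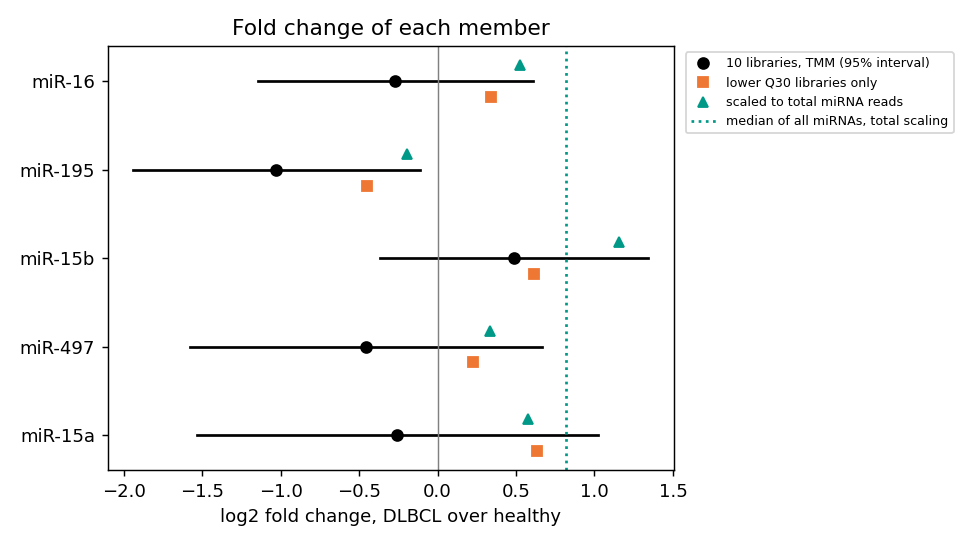
Log2 fold change, DLBCL over healthy, of the 5 members. Black points and bars are edgeR estimates from all 10 libraries with their unadjusted 95% intervals, orange squares those of the lower Q30 group, and green triangles those scaled to total miRNA reads. The dotted line marks the median of all miRNAs under that last scaling (0.82), and only the bar of miR-195 lies clear of 0.

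The sign of the small differences depended on the scaling. When counts were scaled to the total of miRNA reads alone, the 247 miRNAs tested had a median log2 fold change of 0.82 in place of 0.13. Under that scaling miR-15a, miR-16 and miR-497 were at 0.58, 0.53 and 0.34, miR-15b was at 1.15 and miR-195 at -0.19. With miR-148a left out of that total, the median was 0.04, and miR-15a, miR-16 and miR-497 were at -0.20, -0.26 and -0.43. Taken relative to the median of all miRNAs, each member kept its sign over 4 scalings of the counts in edgeR and in limma on log2(TPM + 1). A change of scaling moves all miRNAs by nearly the same amount, which the median takes out. Agreement over the scalings was thus largely given in advance. miR-195 lay between -1.19 and -1.01, miR-497 between -0.62 and -0.47, miR-15a between -0.42 and -0.23, miR-16 between -0.41 and -0.29, and miR-15b between 0.33 and 0.41 over the edgeR scalings. On log2(TPM + 1) they were at -0.95, -0.36, -0.20, -0.13 and 0.68 in that order. Within the lower Q30 group, miR-15a, miR-16 and miR-497 were above that median, by 0.67, 0.37 and 0.26. For miR-195 the value relative to the median in that group was -0.42. Without Healthy5, miR-15a was above the median by 0.05.

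As a whole, the family took a small part of the miRNA reads, 0.268% ± 0.192 over the DLBCL libraries (SD, n = 6) and 0.191% ± 0.121 over the healthy libraries (SD, n = 4). The summed CPM of the 5 members ranged from 1229.6 to 2788 in DLBCL and from 1263 to 3158 in healthy nodes. It averaged 1851 ± 674 CPM over the DLBCL libraries (SD, n = 6) and 2258 ± 776 CPM over the healthy libraries (SD, n = 4). The family's mean was thus higher in DLBCL by share of all miRNA reads and lower by CPM, with overlapping ranges in both. miR-16 held 63.1% ± 4.68 of the family's reads over the DLBCL libraries (SD, n = 6) and 62.9% ± 2.12 over the healthy libraries (SD, n = 4), nearly the same share. miR-195 held 11.999% ± 3.04 over the DLBCL libraries (SD, n = 6), where it ranged from 8.18% to 17.3%, and 20.8% ± 3.02 over the healthy libraries (SD, n = 4), where it ranged from 18.4% to 25.1%. These ranges did not overlap. No such share was formed for other families, so that how often one separates these groups is not known. CPM did so for 13.0% of the miRNAs tested. The shares add up to the whole family, so that a larger share of miR-15b leaves less for the other members. miR-15b held 20.2% ± 6.97 over the DLBCL libraries (SD, n = 6) and 11.0% ± 2.10 over the healthy libraries (SD, n = 4), and DLBCL6, with 11.2%, lay within the healthy range of 8.97% to 12.9%. Shares of miR-497 were 3.38% ± 1.10 (SD, n = 6) and 3.90% ± 1.10 (SD, n = 4), and those of miR-15a 1.34% ± 0.506 (SD, n = 6) and 1.35% ± 0.392 (SD, n = 4). The 95% Wilson interval of the share in a single library was at most 1.37 percentage points wide, which covers counting error only, since PCR reads are not independent molecules.

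**Figure D3:**
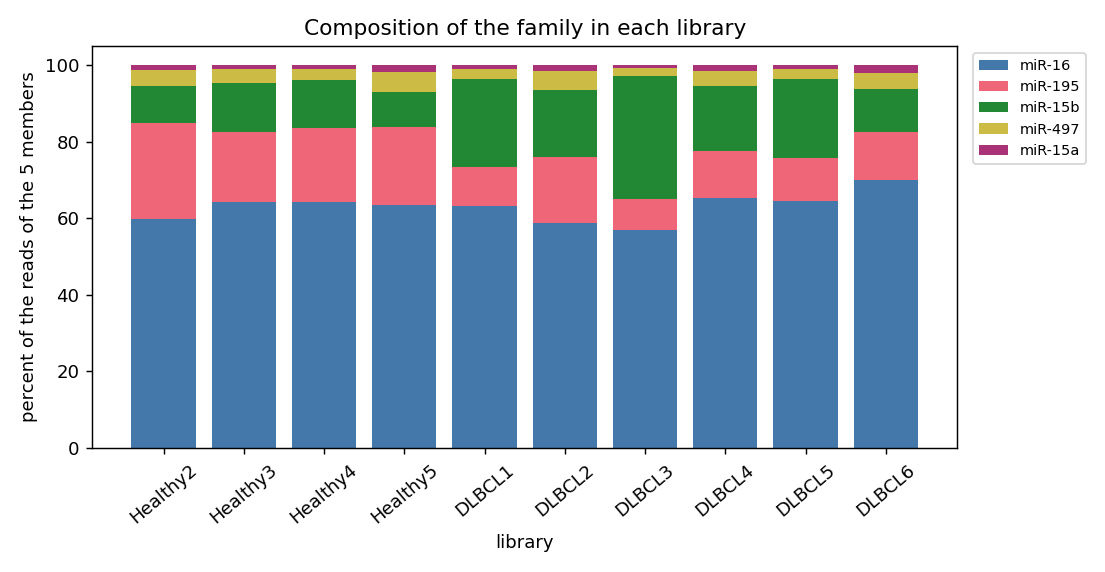
Share of each member among the reads of the 5 members, in percent, with one bar per library. The red segment (miR-195) spans 18.4% to 25.1% in the healthy libraries and 8.18% to 17.3% in DLBCL, and the blue segment (miR-16) is the largest in each bar.

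The order of the members by reads was therefore not the same in the 2 conditions. miR-16 was first, miR-497 last but one and miR-15a last in each of the 10 libraries. Read counts of different miRNAs also reflect how well each is ligated and amplified, so that the place in this order is one of reads, not of molecules. miR-195 stood above miR-15b in 4 of 4 healthy libraries, whereas miR-15b stood above miR-195 in 5 of 6 DLBCL libraries, DLBCL6 being the exception. The ratio of miR-15b to miR-195 was 0.378 in Healthy2, 0.705 in Healthy3, 0.666 in Healthy4 and 0.437 in Healthy5. In DLBCL it ranged from 0.884 in DLBCL6 to 3.91 in DLBCL3, with a median of 1.62. On the log2 scale the ratio averaged 0.72 ± 0.79 over the DLBCL libraries (SD, n = 6) and -0.92 ± 0.45 over the healthy libraries (SD, n = 4). The difference was 1.64, or 1.07 within the lower Q30 group. A ratio within a library does not depend on the scaling between libraries. Of the 10 pairs of members, this pair was the 1 whose log2 ratio did not overlap between the groups. The groups did not overlap for 12.8% of the 30381 pairs of tested miRNAs, and 39.4% of those pairs differed by as much or more, so that the ratio does not set these members apart from other miRNAs.

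The log2 ratios of the other 9 pairs overlapped between the groups. miR-16 had 6.96 times the reads of miR-195 in DLBCL3 and 3.40 times in DLBCL2, and 2.38 to 3.49 times in healthy nodes, so that DLBCL2 alone fell within the healthy range. The difference of the mean log2 ratio was 0.82, and likewise 0.82 within the lower Q30 group. For miR-195 to miR-497, the ratio ranged from 3.16 to 4.30 in DLBCL and from 3.9996 to 7.30 in healthy nodes, a difference of -0.60 in the mean log2 ratio and of -0.77 within the lower Q30 group. For miR-15a to miR-16, the difference was -0.05, smaller than the SD of either group (0.46 in DLBCL and 0.37 in healthy nodes). Its sign was not stable, with 0.39 within the lower Q30 group and -0.18 to 0.13 without one library (positive without DLBCL1, DLBCL3, DLBCL5 or Healthy5).

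**Figure D4:**
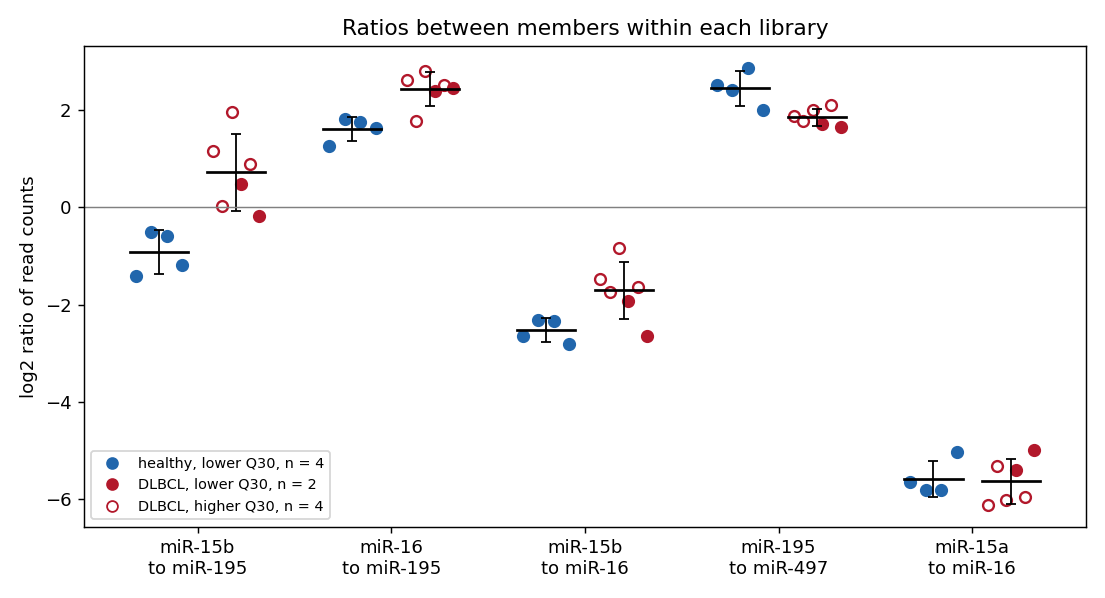
Log2 ratio of the read counts of 2 members within each library, for 5 of the 10 pairs. Blue points are healthy libraries, filled red points DLBCL libraries of the lower and open red points those of the higher Q30 group, and black lines the mean and SD of a condition. The groups are separate for miR-15b to miR-195, and overlap for the other pairs.

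Among dogs of one condition, miR-15a, miR-16, miR-195 and miR-497 varied together and miR-15b apart from them. Over the 10 libraries, as deviations of log2 CPM from the group mean, Pearson's r between the former 4 ranged from 0.82 (miR-16 and miR-497) to 0.97 (miR-195 and miR-497). An r of at least 0.8 was reached by 5.24% of all pairs of tested miRNAs. With miR-15b, r was 0.60 for miR-16, 0.34 for miR-15a, 0.24 for miR-195 and 0.21 for miR-497. These values are descriptions over libraries that share their scaling. On log2(TPM + 1), which lacks the TMM adjustment, r was 0.79 to 0.91 for the pairs with miR-15b and 0.95 to 0.99 for the other pairs. The gap between miR-15b and the other members was thus narrower under that scaling, with each of its pairs still below the others. DLBCL4, DLBCL6 and Healthy5 were the libraries of their groups with the most miR-15a, miR-16, miR-195 and miR-497. They also had the largest TMM factors of their groups, 1.75 and 2.03 against 0.698 to 1.41 in the other DLBCL libraries, and 1.11 against 0.507 to 0.885 in the other healthy ones. Within DLBCL, DLBCL4 and DLBCL6 lay above the other 4 libraries for each of these 4 members, and 27.5% of the tested miRNAs had no overlap between these libraries. For miR-15a, the values were 43.1 and 57.3 CPM against 11.8 to 21.2 CPM. The part of the Q30 group and of the TMM factor in this pattern was not tested.

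**Figure D5:**
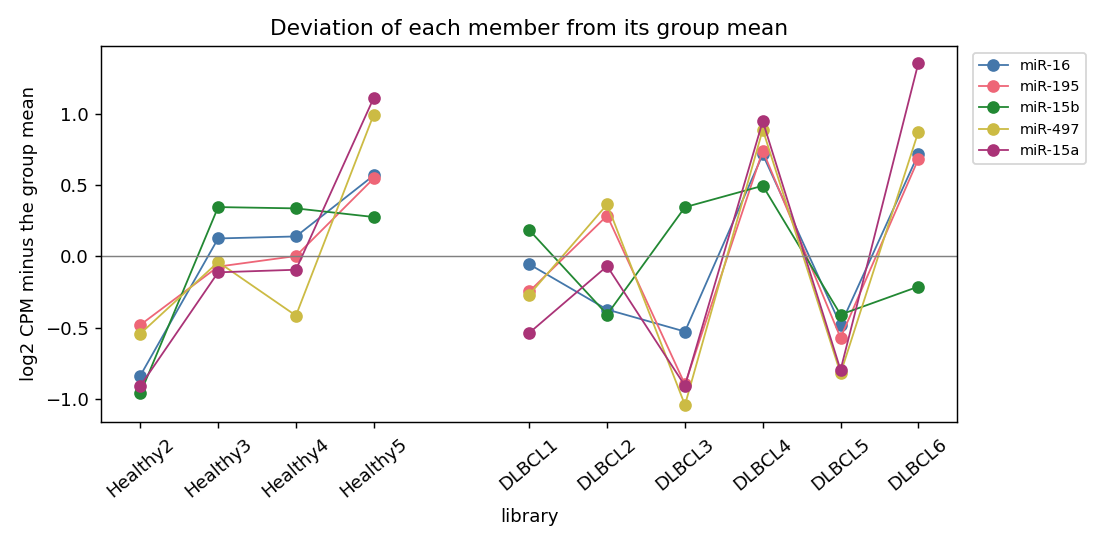
Deviation of log2 CPM of each member from the mean of its condition, with one position per library. Lines join the points of a member only to guide the eye. The curves of miR-15a, miR-16, miR-195 and miR-497 peak in Healthy5, DLBCL4 and DLBCL6, whereas that of miR-15b is below 0 in DLBCL6 and above 0 in DLBCL3.

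The closest pair was that of the neighbouring genes MIR195 and MIR497. Of 246 other miRNAs, miR-497 was the one most like miR-195, and miR-195 the one most like miR-497 (r = 0.97). As much likeness or more was seen in 0.0691% of all pairs of tested miRNAs. The spread of their log2 ratio within groups, an SD of 0.26 pooled over the groups, was the smallest of the 10 pairs of members, and 0.0987% of all pairs of tested miRNAs had one as small. The median over all pairs was 1.45. miR-15b and miR-15a had the widest ratio in the family, with a pooled SD of 0.88.

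For the members that share a locus with a copy of miR-16, the likeness was lower in rank. miR-16 ranked 10 of 246 for miR-15a (r = 0.93) and 13 of 246 for miR-15b (r = 0.60). In the other direction, miR-15a ranked 6 and miR-15b 54 for miR-16. miR-195 and miR-497, from another locus, ranked 4 and 5 for miR-15a (r = 0.94 for both), ahead of miR-16. The miRNAs most like miR-15a were miR-106b, miR-33a and miR-340 (r = 0.96, 0.95 and 0.95), and those most like miR-16 were miR-340, miR-29b and miR-29c (r = 0.99, 0.98 and 0.96). miR-590 and miR-374a followed miR-497 for miR-195 (r = 0.96 for both), and miR-590 and miR-190a followed miR-195 for miR-497 (r = 0.95 for both). miR-15b was most like miR-190b, miR-361 and miR-454 (r = 0.83, 0.798 and 0.76), and only miR-190b passed 0.8 with it, against 26 to 36 miRNAs with each other member.

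Among the DLBCL libraries, no member had a larger spread than the median miRNA. The SD of log2 CPM in DLBCL was 0.95 for miR-15a, 0.84 for miR-497, 0.68 for miR-195, 0.58 for miR-16 and 0.39 for miR-15b, beside a median of 1.07 over the 247 miRNAs tested. In healthy nodes it was 0.84, 0.70, 0.42, 0.60 and 0.64, beside a median of 0.54. miR-15b was thus the least variable member in DLBCL, and miR-195 in healthy nodes.

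The wider group of miR-15 and its relatives holds miRNAs with a related 5′ end, of which 4 were looked up and 3 were analysed here. miR-103 was not analysed here. None of miR-107, miR-424 and miR-503 was a DEM. miR-107, encoded within the pantothenate kinase gene PANK1, averaged 83.6 ± 35.2 CPM over the DLBCL libraries (SD, n = 6) and 50.3 ± 21.3 CPM over the healthy libraries (SD, n = 4). Its log2 fold change was 0.73 (95% interval -0.27 to 1.74), with an edgeR adjusted p of 0.298. Taken within the lower Q30 group, it was 1.26. miR-424 and miR-503, neighbours on one locus, were scarce. miR-424 had 5 to 27 reads per library and a log2 fold change of 0.90 (adjusted p = 0.317 from edgeR). For miR-503, with 16 to 271 reads, it was -0.19 (adjusted p = 0.853 from edgeR), with the sign turned without Healthy5 (0.36).

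A list was made from other families that are known to restrain the cell cycle (let-7 and miR-98, miR-26, miR-29, miR-34 and miR-449). Of its 15 tested miRNAs, 1 was a DEM, miR-34a, which was higher in DLBCL. In the other direction 0 were DEMs, a share near the 5.67% of all miRNAs tested. Log2 fold changes of the 15 were positive for 8 and negative for 7, with a median of 0.02. Over all miRNAs tested, 44.5% were negative and the median was 0.13. The list left out let-7d, which was tested too and was not a DEM (log2 fold change 0.32, adjusted p = 0.732 from edgeR). For the stroma and vessel list, 7 of 7 markers analysed were read in every library, with 0 DEMs and a median log2 fold change of -0.74. Their summed CPM was 29451 to 89551 in DLBCL and 40548 to 79868 in healthy nodes. It was 29451 and 36827 in DLBCL4 and DLBCL6, the lowest of the DLBCL libraries, where miR-195 and miR-497 were highest. This sum is mostly miR-143 and miR-10b, with log2 fold changes of -0.07 and 0.20, and hides the scarcer markers. The log2 fold change was negative for 6 of the 7 markers, down to -1.42 for miR-125b. The part of stroma and vessels in the levels of miR-195 and miR-497 was not tested.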

How the data were processed

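One small RNA library per lymph node was made from total RNA, with 6 DLBCL and 4 healthy libraries assigned by their labels. The authors cleaned the reads, mapped them with Bowtie 0.12.9 (the submitters' processing notes name CanFam3.1), removed repeats and other small RNAs, and used miRDeep2 with miRBase to count mature miRNAs. The counts the authors deposited are not normalized. The TPM values the authors deposited differ by at most 4.55e-05 from counts scaled to the total of the listed miRNA reads.

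In R 4.3.3, edgeR 4.0.16 filtered the counts with filterByExpr, scaled them by TMM and fitted its quasi-likelihood test to the 247 miRNAs left, over which p-values were adjusted (Benjamini-Hochberg). Log2 CPM had 2 added as prior count. Alternatives were other scalings, filters, DESeq2 1.42.0, limma 3.58.1, the Q30 group and each library left out. No pair of libraries of a condition looked like a repeat of one library (chi-squared per degree of freedom at least 2115). Gene neighbours are from RefSeq's UU_Cfam_GSD_1.0, for names only.

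The members and lists were chosen with earlier results of these data known. Named miRNAs are the members, the relatives looked up, the 3 miRNAs most like each member, and list members where a sentence needs one. miR-148a is named because a scaling left it out of the total. The authors' fold changes were not used. Python 3.11.15, pandas 2.3.3 and matplotlib 3.10.9 were used for tables and plots.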

Additional observations from a re-analysis of the deposited data

Results flagged for a closer look

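In 46 sets of 4 or 6 values of one group (CPM, shares of the family's reads and log2 ratios), 2 held a library that stood apart from the rest by Dixon's criterion, and chance flags about 1 in 20 such sets. Healthy2 had 119.8 CPM of miR-15b, against 283 to 297 CPM in the other 3 healthy libraries. Healthy5 had a share of miR-15a of 1.94% of the family's reads, against 1.14% to 1.18% in the others. Their causes were not tested.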

How the results depend on the processing

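No member was a DEM in any of the 24 fits, the main one included, and miR-15b and miR-195 kept their sign in each. The sign turned to positive in 6 fits for miR-15a and in 5 for each of miR-16 and miR-497. With scaling to total miRNA reads their log2 fold changes were 0.58, 0.53 and 0.34, and in limma on log2(TPM + 1) they were 0.35, 0.41 and 0.19. With 0.1 in place of 1 they were 0.36, 0.41 and 0.19. These fits lack the TMM factor, as does the one on total reads without miR-148a, where they stayed negative (-0.20, -0.26 and -0.43). With the Q30 group as a covariate they were 0.64, 0.35 and 0.23, and in the lower Q30 group alone 0.63, 0.34 and 0.23, with 2 DLBCL libraries. miR-195 was at -0.44 and -0.45 in these fits. Leaving out each library gave -0.60 to 0.14 for miR-15a, the positive one without Healthy5, -0.50 to -0.14 for miR-16, -0.66 to -0.11 for miR-497, -1.18 to -0.86 for miR-195 and 0.29 to 0.63 for miR-15b. miR-503 ranged from -0.44 to 0.36 (without Healthy5).

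The number of DEMs over all miRNAs was 14 (9 higher and 5 lower). It was 8 with DESeq2 size factors (3 higher), 23 with total reads (22 higher), 44 with DESeq2 (32 higher), 46 with limma-voom and quality weights (26 higher), 24 on log2(TPM + 0.1) (21 higher), 7 with the Q30 covariate and 46 in the lower Q30 group. On log2(TPM + 1) it was 21 (18 higher), and 17 without a filter (9 higher). Without one library it ranged from 1 to 23. It was 3 without DLBCL1, 22 without DLBCL3, 23 without DLBCL4, 2 without Healthy2, 5 without Healthy3, 1 without Healthy4 and 6 without Healthy5. With the replicate number as a block it was 1, and the log2 fold changes of miR-15a, miR-15b, miR-16, miR-195 and miR-497 were -0.53, 0.54, -0.45, -1.22 and -0.65. The numbers name different dogs, and 1 of 4 healthy libraries correlated best with its own number, so that they do not pair the libraries. The likeness of miR-195 and miR-497 was 0.96 to 0.99 without one library. The 150 ratios and shares recomputed without one library moved by less than 1 SD. A mean over so few libraries cannot move by 1 SD when one is left out, so this does not measure stability. The causes of these changes were not tested. Intervals of the 5 members span 1.71 to 2.56 log2 units, which limits what could be detected.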
